A study of Mus musculus with 6 samples.

Results

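MHC molecules present peptides to T cells, and the 10 genes described here encode their chains and the proteins that load them. They were taken by symbol from the 31053 genes of the count table, after mapping to GENCODE M21: the class I chains H2-K1, H2-D1 and B2m, the peptide loading genes Tap1, Tap2 and Tapbp, and the class II genes H2-Aa, H2-Ab1, H2-Eb1 and Cd74. All 10 passed the minimum on expression. RNA was sequenced from quiescent muscle stem cells (qMuSCs) sorted from the hindlimb muscles of 3 WT and 3 cD2KO mice, with a library for each mouse. The question was how loss of type 2 deiodinase (D2, encoded by Dio2), the enzyme that activates thyroid hormone, changes these cells at rest. All mice were 3 to 4 months old, received tamoxifen, and carried Pax7nGFP, by which the cells were sorted, and floxed Dio2 alleles. The cD2KO mice (fl125, fl126 and fl128) also carried Pax7-CreERT2, and the WT mice (c124, c129 and c130) had the unmodified Pax7 allele in its place. Besides Dio2, the groups therefore differ by the Cre allele, and deletion is limited to cells in which Pax7 drives the Cre.

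Class I molecules sit on nearly all nucleated cells. A heavy chain such as H2-K1 or H2-D1 pairs with the light chain B2m and takes up a peptide that the Tap1 and Tap2 transporter carries into the endoplasmic reticulum, where Tapbp (tapasin) holds the complex during loading. Class II molecules are made mainly by professional antigen-presenting cells such as macrophages, dendritic cells and B cells, where Cd74, the invariant chain, occupies the groove until a peptide replaces it. Class II promoters, and those of class I to a lesser extent, carry a conserved array of short elements that the RFX, CREB and NF-Y factors bind, with Ciita (class II) or Nlrc5 (class I) as the coactivator.

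Libraries held 2184073 to 3897787 counts, of which 13985 to 15491 genes had at least 1. CPM are counts per 1000000, on library sizes scaled by TMM, and 3 counts, taken as the floor of detection, equal 0.773 to 1.37 CPM. Dio2 had 21, 5 and 10 counts in c124, c129 and c130, and 15, 5 and 1 in fl125, fl126 and fl128. In CPM these were 5.41, 1.86 and 3.48 CPM in WT and 6.83, 1.72 and 0.316 CPM in cD2KO, so Dio2 CPM was higher in the library labelled fl125 than in any other, WT included. That order rests on few counts, 15 in fl125 and 21 in c124, and was not tested. Reads from the floxed part are not told apart in these counts, which therefore do not check the genotype labels. Muscle stem cell markers were present in every mouse, and 9 of 9 passed the minimum, with a summed level of 1272 to 1816 CPM in WT and 1545 to 2786 CPM in cD2KO. The highest sum was in fl125, at 160% of the mean of the other cD2KO mice, and the lowest was in c129. Markers of other cells were present too: those of macrophages and monocytes summed to 3556 to 6284 CPM in WT and 199 to 2058 CPM in cD2KO. In that sum the ends were reversed, with c129 highest and fl125 lowest. That library, fl125, also stood apart in these immune markers, and calls and fold changes are therefore given without it as well. In RNA from a bulk sort, fewer cells of a type and less RNA per cell cannot be told apart.

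Promoters of 7 of the 10 members were taken from the RefSeq table (GRCm38.p6). Tap2 and H2-Ab1 had no entry of the length used, and Cd74 was left out of the search by choice. The 4 stretches printed show the element that class I and class II promoters share. Each is 120 bases long and runs 5′ to 3′ on the strand of the gene, from position -121 to -2 with the RefSeq start as position 0. Capitals mark TGANG and the ATTGG that follows it 18 to 24 bases later, the core letters of a CREB-type half-site and of a CCAAT box read from the other strand. H2-K1 is from chr17:34000349-34000468 (minus strand), B2m from chr2:122147566-122147685 (plus), H2-Aa from chr17:34287825-34287944 (minus) and H2-Eb1 from chr17:34305746-34305865 (plus).
H2-K1: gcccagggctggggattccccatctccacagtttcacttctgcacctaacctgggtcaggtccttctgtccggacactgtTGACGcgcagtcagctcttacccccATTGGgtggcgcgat
B2m: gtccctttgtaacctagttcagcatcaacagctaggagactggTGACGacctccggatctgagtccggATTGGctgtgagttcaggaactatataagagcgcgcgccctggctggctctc
H2-Aa: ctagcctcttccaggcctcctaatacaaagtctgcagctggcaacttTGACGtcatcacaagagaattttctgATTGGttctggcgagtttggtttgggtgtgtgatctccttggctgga
H2-Eb1: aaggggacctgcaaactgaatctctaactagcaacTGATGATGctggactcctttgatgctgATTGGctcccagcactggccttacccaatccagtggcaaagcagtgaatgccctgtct

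The gap between the elements was 20 bases in H2-K1 and B2m, and 21 bases in H2-Aa. H2-Eb1 holds TGATGATG, in which a pair of TGANG matches overlap, with gaps of 22 and 19 bases. The pair was present in 5 of the 7 promoters (H2-K1, H2-D1, B2m, H2-Aa and H2-Eb1) and in 1.887% of 32851 promoters of the same length, searched on both strands over 250 bases before and 50 after the start. Its spacing was set after these promoters had been seen, so the share is a description. Of its parts alone, ATTGG was in 7 of 7 members and 37.41% of all promoters, and TGACG, which overlaps TGANG, was in 5 of 7 and 20.81%. Outside the pair, a palindromic NF-kB site, GGGGATT followed by CCCC, was in H2-K1 and H2-D1 and in 10 promoters in all (0.03044%). That share is a description too, with no test run on it. A strict form of the interferon element, GAAA and again GAAA with any 2 bases between, was in B2m alone among the 7. It was in 3.443% of all promoters, and looser forms of the element were not searched. A match says only that these letters lie in the window.

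**Figure D1:**
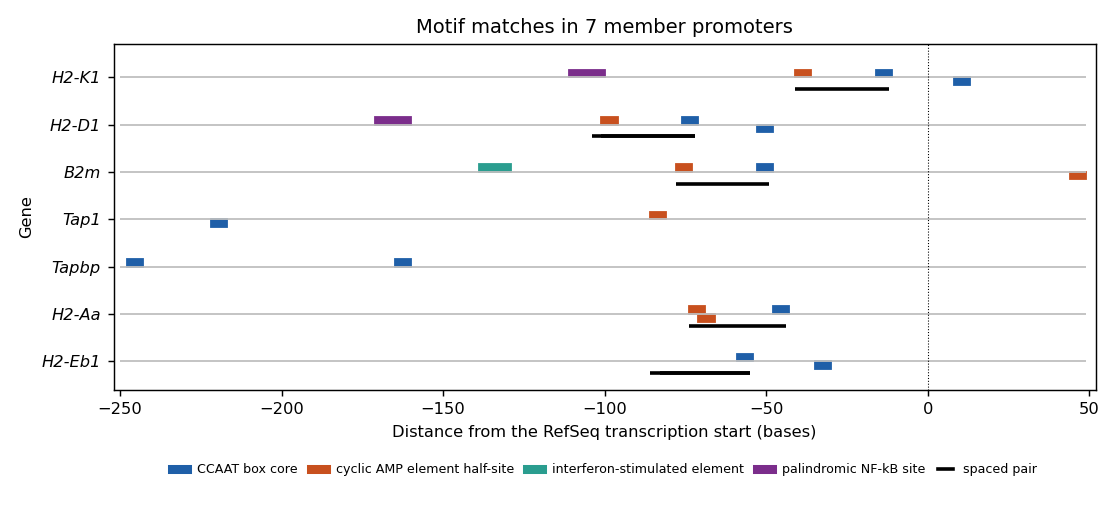
Motif matches in the 7 member promoters by distance from the RefSeq start in bases, with boxes above the line for the strand of the gene and below it for the other strand, and black bars for the spaced pair. The pair lies upstream of the start in H2-K1, H2-D1, B2m, H2-Aa and H2-Eb1, and is not seen in Tap1 or Tapbp.

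In cD2KO qMuSCs 3 of the 10 members were lower than in WT and 0 were higher, calls being made throughout where edgeR's quasi-likelihood test gave an unadjusted p below 0.05. SE stands for the standard error of a log2 fold change. Over the 11633 genes tested 6.62% were called lower and 5.34% higher. The members called were H2-K1, H2-D1 and Tap1, which make up 3 of the 6 class I and loading genes, while 0 of the 4 class II genes were called. The median log2 fold change was -0.83 over the 10 members, -0.56 over the class I and loading genes and -1.09 over the class II genes, against -0.02 over all genes tested. The class I and loading median was -0.33 without c129, and the class II median was -0.49 without fl125, -1.71 without fl128 and -2.16 with limma voom. No member passed the Benjamini-Hochberg adjustment in edgeR's test at 0.05, where 0% of all genes were lower and 0.0086% (1 gene) higher. With limma voom 3 of the 4 class II genes were called lower, H2-Aa, H2-Ab1 and Cd74, against 6.58% of all genes. All cD2KO mice lay below all WT mice in 5 of the 10 members, and all lay above in 0, against 10% (1168 genes) and 8.05% of all genes tested.

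**Figure D2:**
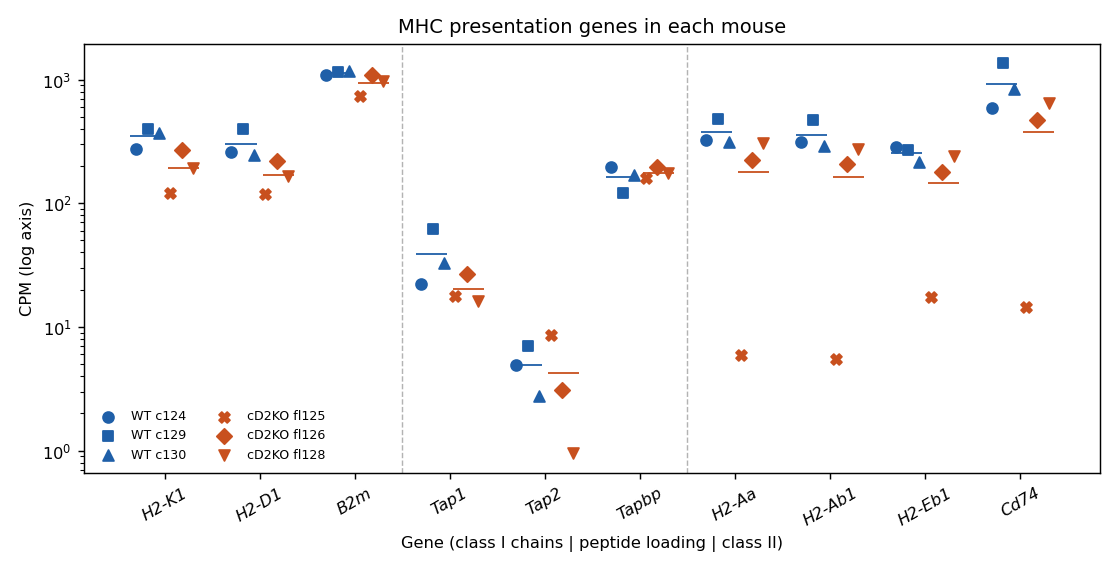
Level of each member in each mouse in CPM on a log axis, with WT in blue, cD2KO in orange, a symbol for each mouse and a line at each group mean (n = 3 mice each). In the 4 class II genes fl125 lies between 5.47 and 17.3 CPM, far below the other 5 mice. In H2-K1, H2-D1 and B2m it is also the lowest mouse, but less far below, at 121, 120 and 739 CPM.

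H2-K1 (ENSMUSG00000061232, mm10 chromosome 17, 33996017 to 34000347, minus strand) encodes the K heavy chain. It was at 273, 397 and 369 CPM in c124, c129 and c130 (WT), and at 121, 270 and 192 CPM in fl125, fl126 and fl128 (cD2KO). Every cD2KO mouse lay below every WT mouse, although fl126 and c124 were close. The WT mean was 347 ± 65.1 CPM and the cD2KO mean 194 ± 74.5 CPM (SD over 3 mice), and the log2 fold change was -0.83 (SE 0.27, edgeR adjusted p = 0.209). It was called with each mouse left out in turn.

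H2-D1 (ENSMUSG00000073411, chromosome 17, 35262730 to 35267499, plus strand) encodes the D heavy chain. Its level was 262, 399 and 244 CPM in c124, c129 and c130, and 120, 221 and 167 CPM in fl125, fl126 and fl128. Again the groups did not overlap, c129 was highest and fl125 lowest. The WT mean was 302 ± 84.9 CPM and the cD2KO mean 169 ± 50.5 CPM (SD over 3 mice). The log2 fold change was -0.83 (SE 0.26, edgeR adjusted p = 0.190), and without c129 the call was lost (-0.55). Per kilobase of exon, H2-K1 and H2-D1 were at like levels in WT, 118 and 117 CPM per kb, and in cD2KO, 66.0 and 65.6 CPM per kb. The heavy chain genes resemble each other and the H2-Q genes, so reads could be split or lost among them, and the count of each is uncertain.

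B2m (ENSMUSG00000060802, chromosome 2, 122147686 to 122153083, plus strand) encodes the light chain that all class I heavy chains share. It was at 1096, 1155 and 1167 CPM in c124, c129 and c130, and at 739, 1094 and 977 CPM in fl125, fl126 and fl128. WT mice were within a narrow range and fl126 lay just under it, so the groups were separated only narrowly. The WT mean was 1139 ± 37.8 CPM and the cD2KO mean 937 ± 181 CPM (SD over 3 mice). Its log2 fold change of -0.28 (SE 0.21, edgeR adjusted p = 0.645) was not called. The ratio of B2m counts to the summed counts of H2-K1 and H2-D1 was 2.05, 1.45 and 1.90 in c124, c129 and c130, and 3.07, 2.23 and 2.72 in fl125, fl126 and fl128. In this ratio within each library the groups did not overlap, and it was higher in the cD2KO mice. B2m overlaps Patl2 on the opposite strand, and as the use of strand in counting is not given in the sources used here, reads in the shared stretch are uncertain.

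Tap1 (ENSMUSG00000037321, chromosome 17, 34187553 to 34197225, plus strand) encodes a subunit of the peptide transporter. It was at 22.1, 62.0 and 32.7 CPM in c124, c129 and c130, and at 17.8, 26.8 and 16.1 CPM in fl125, fl126 and fl128. The groups overlapped, since fl126 was above c124, and c129 was well above all others. Its log2 fold change was -0.93 (SE 0.37, edgeR adjusted p = 0.354), and it was called in 3 of the 6 fits that left out a mouse, with a value of -0.41 without c129 and no call without fl125 (-0.81) or fl128 (-0.79) either. Tap1 overlaps Psmb9 on the opposite strand.

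Tap2 (ENSMUSG00000024339, chromosome 17, 34203527 to 34216321, plus strand), the other subunit, was at 4.89, 7.05 and 2.78 CPM in c124, c129 and c130, and at 8.65, 3.10 and 0.947 CPM in fl125, fl126 and fl128. The highest and the lowest level were both in cD2KO mice, and no mouse had more than 19 counts. Its log2 fold change was -0.26 (SE 0.75, edgeR adjusted p = 0.938), which became positive without c129 (0.09) or fl128 (0.24). Tapbp (ENSMUSG00000024308, chromosome 17, 33915899 to 33929292, plus strand) was at 196, 121 and 170 CPM in c124, c129 and c130, and at 159, 197 and 174 CPM in fl125, fl126 and fl128. Its groups overlapped, and c129, the mouse highest in Tap1, was the lowest in Tapbp. The log2 fold change of Tapbp was 0.12 (SE 0.21, edgeR adjusted p = 0.887). Tap2 overlaps Gm20496 and Gm15821, and Tapbp overlaps Gm19412, on the opposite strand, and Tapbp overlaps Zbtb22 on its own strand.

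In the class II genes, 1 library, fl125, lay far below the others, and the size and error of the difference depended on it. H2-Aa (ENSMUSG00000036594, chromosome 17, 34282744 to 34287823, minus strand) encodes the alpha chain of the I-A molecule. It was at 323, 484 and 315 CPM in c124, c129 and c130, and at 5.92, 225 and 305 CPM in fl125, fl126 and fl128. In fl125 this rests on 13 counts (lower end of the 95% exact Poisson interval 3.15 CPM, counting error only), above the floor of 1.37 CPM. All cD2KO mice lay below all WT mice, but fl128 was close to c130 and c124, and the spread among cD2KO mice was 155 CPM (SD, n = 3) around a mean of 179 CPM. The log2 fold change was -1.06 (SE 1.18, edgeR adjusted p = 0.807).

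H2-Ab1 (ENSMUSG00000073421, chromosome 17, 34257689 to 34269419, plus strand), the beta chain that pairs with H2-Aa, was at 311, 467 and 291 CPM in c124, c129 and c130, and at 5.47, 206 and 274 CPM in fl125, fl126 and fl128. It repeated the order of the mice seen in H2-Aa, and its log2 fold change was -1.13 (SE 1.17, edgeR adjusted p = 0.787). The ratio of H2-Aa to H2-Ab1 counts was 1.04 to 1.08 in WT mice, 1.09 in fl126 and 1.11 in fl128. In fl125 it was 1.08, but on 13 and 12 counts, with a 95% exact interval of 0.456 to 2.598.

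H2-Eb1 (ENSMUSG00000060586, chromosome 17, 34305867 to 34316674, plus strand) encodes the beta chain of the I-E molecule. It was at 287, 269 and 215 CPM in c124, c129 and c130, and at 17.3, 178 and 242 CPM in fl125, fl126 and fl128. The groups overlapped, since fl128 was above c130, and the log2 fold change was -0.81 (SE 0.89, edgeR adjusted p = 0.805). Relative to H2-Ab1 it was not as low in fl125 as elsewhere: the ratio of counts was 0.576 to 0.922 in WT, 0.863 in fl126 and 0.883 in fl128, but 3.17 in fl125 (95% exact interval 1.62 to 6.66). H2-Eb1 overlaps Gm20513 on the opposite strand.

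Cd74 (ENSMUSG00000024610, chromosome 18, 60803848 to 60812652, plus strand) encodes the invariant chain. It was at 584, 1349 and 840 CPM in c124, c129 and c130, and at 14.6, 469 and 648 CPM in fl125, fl126 and fl128. The groups overlapped, since fl128 was above c124, and c129 was far above the rest. Its log2 fold change was -1.29 (SE 1.24, edgeR adjusted p = 0.766). Per kilobase of exon it had the highest class II level, 550 CPM per kb in WT against 98.5 for H2-Aa, 139 for H2-Ab1 and 132 for H2-Eb1, and it was exceeded only by B2m among the members, at 1325 CPM per kb. Cd74 holds Mir5107 on its own strand.

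Without fl125 the class II differences were smaller and their errors narrower. The log2 fold changes became -0.45 for H2-Aa (SE 0.23), -0.53 for H2-Ab1 (0.23), -0.25 for H2-Eb1 (0.21) and -0.68 for Cd74 (0.31). H2-Ab1 and Cd74 were then called, 2 of the 4, where 7.43% of 11769 genes were called lower and 7.93% higher. Their adjusted p were 0.286 and 0.324 in edgeR's quasi-likelihood test. H2-K1 and H2-D1 were at -0.55 (SE 0.22) and -0.60 (0.23) in the same fit, and both were called. B2m was at -0.10 (0.20), Tap1 at -0.81 (0.41), Tap2 at -1.24 (0.82) and Tapbp at 0.23 (0.22), and none of these was called. Whether the class I and class II differences differ from each other was not tested.

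**Figure D3:**
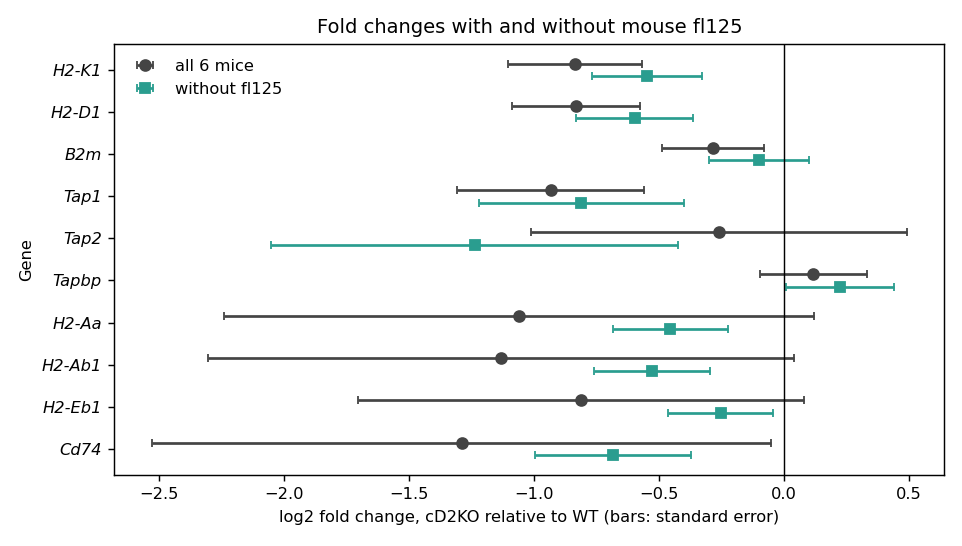
Log2 fold change of cD2KO relative to WT for each member from edgeR, with its standard error as bars, for all 6 mice (circles) and without fl125 (squares). The class II bars shrink when fl125 is left out, from standard errors of 0.89 to 1.24 to 0.21 to 0.31, and the values move toward 0.

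Set against each other within each library, class II and class I counts showed the same split. The ratio of the 4 class II genes to H2-K1, H2-D1 and B2m was 0.922, 1.32 and 0.934 in c124, c129 and c130, and 0.0442, 0.680 and 1.10 in fl125, fl126 and fl128. The other 5 mice thus lay within 0.680 to 1.32, and fl125 far below them. As a percentage of the mean of the other cD2KO mice, fl125 had 67.1% of the class I chains and 88.7% of the loading genes, but 3.40% of class II. By gene, the class I values were 52.3% for H2-K1, 61.8% for H2-D1 and 71.4% for B2m. The other cD2KO mice had 81.7% of the WT mean in class I, 101% in the loading genes and 66.7% in class II.

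Summed markers of immune cells were lower in every cD2KO mouse than in any WT mouse, and lowest in fl125. The loading genes did not share this, with sums of 190 to 224 CPM in WT and 185 to 227 CPM in cD2KO. From fl126 to fl128 the immune sums rose, while the class I chains fell from 1585 to 1335 CPM. All 7 leukocyte and all 13 macrophage and monocyte markers passed the minimum, and 2 and 5 of them were called lower, against 6.62% of all genes. These counts depended on the fit: 6 and 12 were called lower by non-robust edgeR and likewise by limma voom with all mice, and 5 and 12 without fl125. Of all genes, 825 were called lower by non-robust edgeR, 765 (6.58%) by limma voom and 874 (7.43%) without fl125. Leukocyte markers, led by Fcer1g and Laptm5, summed to 529 to 1382 CPM in WT and 31.4 to 380 CPM in cD2KO, and none was at 0 in fl125. Among the macrophage and monocyte markers, led by C1qa and Lyz2, Cx3cr1, Cd14 and Ccr2 were at 0 in fl125. Ptprc (CD45), which marks all leukocytes, was at 18.3, 69.8 and 24.7 CPM in c124, c129 and c130, and at 4.10, 15.8 and 7.90 CPM in fl125, fl126 and fl128. It was lower in cD2KO with no overlap (log2 fold change -1.98, SE 0.60, edgeR adjusted p = 0.221), a call kept without fl125 (-1.61) and lost without fl128 (-1.86). In fl125 the leukocyte sum was 8.92% and the macrophage sum 10.2% of the mean of the other cD2KO mice. Those other mice had 39.5% and 41.6% of the WT mean. The part of these cells in the MHC differences was not tested.

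The class II and macrophage markers did not keep 1 ratio. Class II counts over macrophage counts were 0.423, 0.409 and 0.392 in c124, c129 and c130, a narrow range, and 0.218, 0.584 and 0.714 in fl125, fl126 and fl128. In fl126 and fl128 class II was thus higher relative to the macrophage markers than in any WT mouse, and in fl125 lower. Class I over macrophage counts was 0.459, 0.311 and 0.420 in WT and 4.93, 0.858 and 0.649 in fl125, fl126 and fl128, above WT in every cD2KO mouse.

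**Figure D4:**
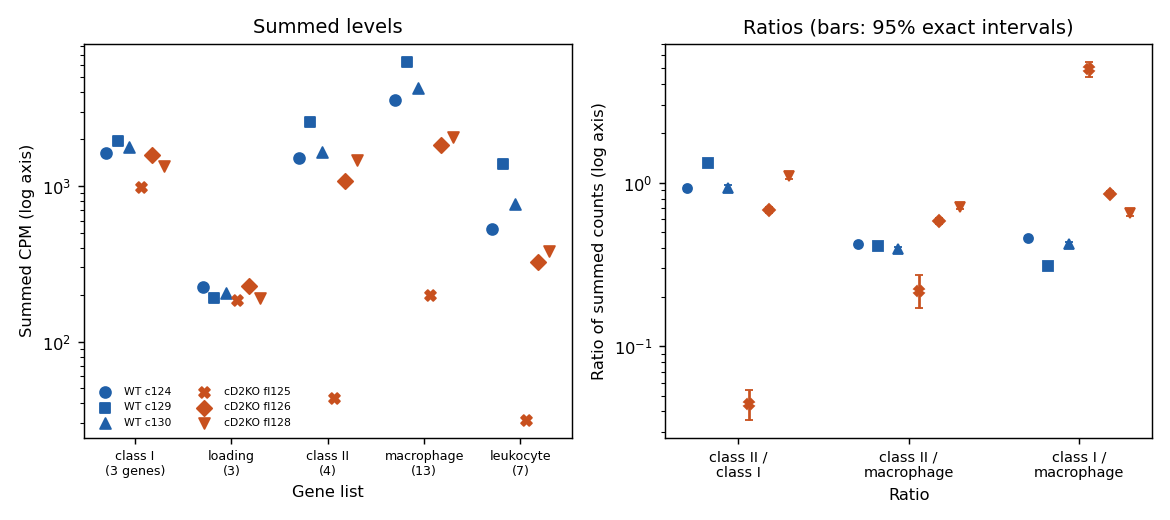
Left, summed CPM of the class I chains, loading genes, class II genes, macrophage and monocyte markers and leukocyte markers in each mouse on a log axis. Right, ratios of summed counts with 95% exact intervals, which cover counting error only; class II over class I is 0.0442 in fl125 and 0.680 to 1.32 in the other mice.

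Markers of other antigen-presenting cells were at low levels. Dendritic cell markers, led by Zbtb46 and Batf3, had 2 of 8 tested and summed to 25.2 to 35.6 CPM in WT and 16.4 to 18.2 CPM in cD2KO, with Itgax, Flt3, Cd209a, Xcr1, Clec9a and Ccr7 at 0 in fl125. B cell markers, led by Cd79b and Ms4a1, had 0 of 4 tested and summed to 4.52 to 13 CPM in WT and 0 to 3.79 CPM in cD2KO, and Cd79a was at 0 in every mouse. T and NK cell markers, led by Nkg7 and Klrb1c, had 1 of 6 tested and summed to 8.01 to 24.1 CPM in WT and 0 to 18.9 CPM in cD2KO. Their part was not tested either.

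Among cells that carry no class II as a rule, the markers did not move in 1 direction. The shares of all genes called were 6.62% lower and 5.34% higher, and 7.43% and 7.93% without fl125. Endothelial markers, led by Esam and Egfl7, had 9 of 10 tested and 5 lower, with sums of 227 to 304 CPM in WT and 190 to 241 CPM in cD2KO. Esam, not called, was higher in every cD2KO mouse than in any WT mouse, and without it, a choice also made after the data were seen, the sums were 98.9 to 160 CPM in WT and 45.1 to 93.2 CPM in cD2KO, with no overlap. Fibroadipogenic markers, led by Dcn and Col1a2, had 2 of 7 lower, with sums of 3616 to 6143 CPM and 2215 to 4952 CPM. Mural cell markers, led by Acta2 and Myh11, had 2 of 7 higher, with sums of 5142 to 9031 CPM in WT and 10493 to 15346 CPM in cD2KO. The difference in this sum was carried by Acta2 and Myh11: without them, a choice made after the data were seen, the sums were 1570 to 2919 CPM in WT and 1282 to 2943 CPM in cD2KO. Over all 7 mural cell markers, Acta2 and Myh11 included, the median log2 fold change was 0.0025. Of the muscle stem cell markers, led by Chodl and Pax7, 3 of 9 were higher. Schwann cell markers, led by Mbp and Prx, had 1 of 4 lower, with sums of 1347 to 1903 CPM and 1767 to 1879 CPM. Muscle fiber genes, led by Acta1 and Mylpf (0 of 5 called), summed to 1353 to 3152 CPM and 2407 to 4745 CPM. Red blood cell genes, led by Hbb-bs and Hbb-bt (0 of 4 called), summed to 10601 to 16546 CPM and 3409 to 22176 CPM, with the lowest value in fl125. Without fl125 the calls were 4 endothelial, 2 fibroadipogenic and 1 Schwann cell marker lower, 2 mural cell markers and 4 muscle fiber genes higher, and 1 muscle stem cell marker in each direction. Class I RNA can come from the nucleated cells among these, and their part in its difference was not tested.

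The other genes of the pathway were taken from written lists. Beside their counts, 6.62% of all genes tested were called lower and 5.34% higher, and 7.43% and 7.93% without fl125. Of 19 other class I genes found, 7 were tested, 2 were lower and 0 higher, with a median log2 fold change of -0.78. Those lower were Fcgrt, the neonatal Fc receptor that also pairs with B2m, and the class Ib gene H2-Q4. Fcgrt was at 233, 281 and 279 CPM in c124, c129 and c130, and at 102, 184 and 147 CPM in fl125, fl126 and fl128, with no overlap (log2 fold change -0.87, edgeR adjusted p = 0.124). H2-Q4 had a log2 fold change of -1.24 (edgeR adjusted p = 0.369), which was not called without c129, fl126 or fl128, and its counts are uncertain for the same reason as those of the heavy chains. Of the 10 loading and immunoproteasome genes, 10 were tested and 0 were called in either direction, with a median of -0.35. Without fl125, Fcgrt was at -0.64 and H2-Q4 at -1.79, both still called, and they were 2 of 8 other class I genes called (median -0.46). Of the loading and immunoproteasome genes 2 were then lower, Pdia3 and Psmb9, and 1 higher, Psme1 (median -0.27).

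Of 12 class II accessory genes found, 6 were tested, with a median of -2.04, and 3 were lower, against 6.62% of all genes tested. They were March1, a ubiquitin ligase that removes class II and Cd86 from the surface (-2.26, adjusted p = 0.132), Cd86, a costimulatory ligand (-2.61, adjusted p = 0.151), and Lgmn, a lysosomal protease (-1.82, adjusted p = 0.199), all from edgeR's quasi-likelihood test. Of these, Cd86 was at 12.1, 30.4 and 13.2 CPM in c124, c129 and c130, and at 0, 4.13 and 4.42 CPM in fl125, fl126 and fl128, with no overlap. H2-DMb1, a chain of the DM molecule that helps exchange peptides, did not follow the class II members in fl125. It was at 25.8, 40.1 and 30.3 CPM in c124, c129 and c130, and at 23.7, 21.7 and 31.3 CPM in fl125, fl126 and fl128, so that fl125, with 52 counts, lay within the range of the other mice. Its partner H2-DMa was at 7.29 CPM in fl125 against 26.8 to 46.6 CPM in the other mice, and the ratio of H2-DMa to H2-DMb1 counts was 0.308 there (95% exact interval 0.164 to 0.547) and 1.03 to 1.81 in the others. Without fl125, 4 of 7 accessory genes were lower, Ctss (-1.88) besides March1 (-1.86), Cd86 (-2.06) and Lgmn (-1.42), with a median of -1.42. H2-DMa and H2-DMb1 were singled out after their values were seen.

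Of the 16 genes that control MHC transcription, all were tested, with a median of -0.34. Of these 2 were lower and 0 higher, against 6.62% and 5.34% of all genes tested. Ciita, the class II coactivator, was at 7.73, 10.4 and 5.22 CPM in c124, c129 and c130, and at 0, 5.16 and 1.58 CPM in fl125, fl126 and fl128. The groups did not overlap, though c130 and fl126 nearly met. Its log2 fold change of -1.72 (SE 0.81, edgeR adjusted p = 0.425) was not called. Nlrc5, the class I coactivator, was at 4.64, 10.4 and 13.2 CPM in c124, c129 and c130, and at 0, 7.57 and 4.74 CPM in fl125, fl126 and fl128, with overlap and no call (log2 fold change -1.14, edgeR adjusted p = 0.632). The RFX subunit Rfx5 had a log2 fold change of -0.51 (adjusted p = 0.725), also not called. Both coactivators were thus at 0 counts in fl125, the library with the fewest counts. In the other mice Ciita had only 5 to 30 counts and Nlrc5 15 to 38. The class I chains had 263 to 1623 counts in fl125, so depth limits a comparison of the coactivators with them. Without fl125 the log2 fold changes were -1.17 for Ciita, -0.56 for Nlrc5 and -0.39 for Rfx5, none called, and the median of the list was -0.35.

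The 2 genes called were Ifngr1, a chain of the interferon gamma receptor, and Irf8, a transcription factor of myeloid cells. Ifngr1 was at 84.7, 136 and 106 CPM in c124, c129 and c130, and at 62.4, 56.7 and 49.3 CPM in fl125, fl126 and fl128. Here fl125 was the highest of the cD2KO mice, and the groups did not overlap (log2 fold change -0.96, edgeR adjusted p = 0.0997). Irf8 had a log2 fold change of -1.73 (edgeR adjusted p = 0.102), with no overlap. Without fl125 both were again the genes called, Ifngr1 at -0.996 (edgeR adjusted p = 0.0378) and Irf8 at -1.38 (0.0664).

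**Figure D5:**
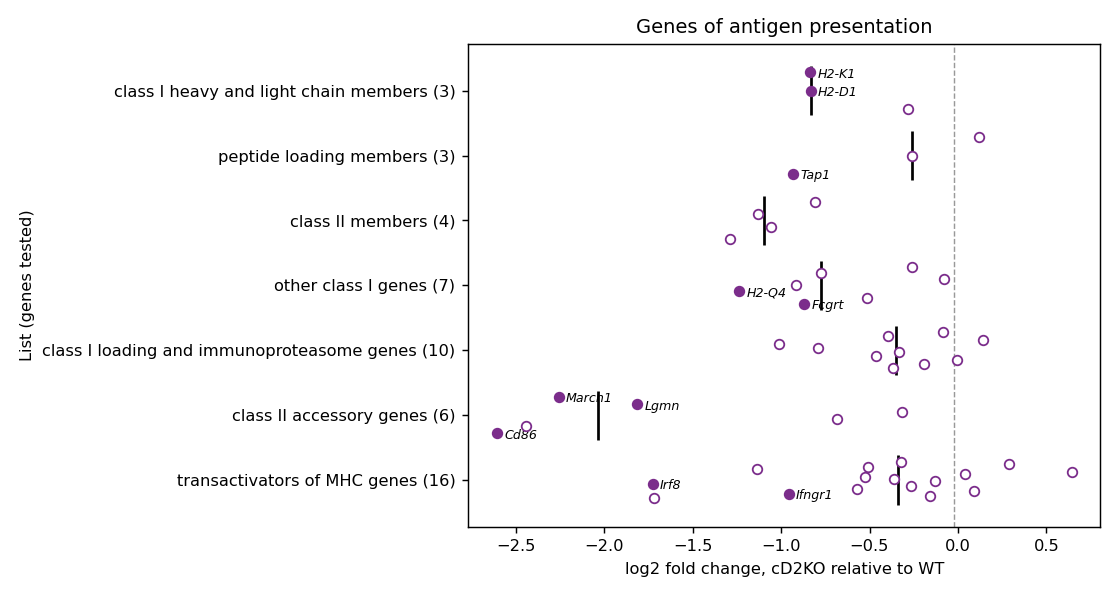
Log2 fold change of cD2KO relative to WT from edgeR for every tested gene of the member and pathway lists, with filled points for genes at an unadjusted p under 0.05, a black line at each list's median and a dashed line at the median of all genes tested (-0.02). The class II accessory genes have the lowest median, -2.04, and filled points lie only on the lower side.

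Genes whose levels followed the members most closely over the 6 mice were sought by Pearson's r of log2 CPM, as a description of 6 points that share their libraries. With the mean of the 4 class II genes these were Spi1 (r = 0.997), Ifitm2 (0.997), Clec4a1 (0.995), Lyl1 (0.995) and Rab11fip5 (0.994), of which Spi1 encodes PU.1, a myeloid transcription factor. Spi1 was at 57.4, 72.8 and 66.8 CPM in c124, c129 and c130, and at 0, 34.0 and 43.3 CPM in fl125, fl126 and fl128. With the mean of H2-K1, H2-D1 and B2m they were Trem2 (r = 0.998), Casp4 (0.997), Cd84 (0.996), Apobec3 (0.995) and Rpl10a (0.994), of which Trem2 encodes a receptor of macrophages. Trem2 was at 7.21, 21.9 and 11.5 CPM in c124, c129 and c130, and at 0, 5.16 and 2.21 CPM in fl125, fl126 and fl128. Values of r above 0.9 were common, in 3.73% and 4.12% of 11623 genes. Over the 5 mice without fl125, r was 0.827 to 0.875 for the 5 genes named with class II and 0.984 to 0.996 for those named with class I.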

How the data were processed

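RNA was sequenced from sorted cells of 3 WT and 3 cD2KO mice. Counts are as deposited by the authors, whole numbers of reads on each gene with no normalization, from alignment to mm10. The submitters' processing notes name bcl2fastq, STAR 2.6.0a and HTSeq 0.9.1; annotation, strand setting and treatment of duplicate reads are not given in the sources used here. In GENCODE M21, 30934 of 31053 identifiers were found. Following the study, a gene was tested if its DESeq2-normalized count averaged more than 10. Scaling was by TMM, and groups were compared by quasi-likelihood in edgeR 4.0.16 (R 4.3.3, robust, all 6 mice, no covariate), with Benjamini-Hochberg adjustment over all genes tested; the fit was tested on simulated data. Alternatives were DESeq2 1.42.0, voom in limma 3.58.1, other scalings, minimums and thresholds, and each mouse left out. Log2 CPM used a prior count of 2. Intervals (95%) and floors of 3 counts cover counting error only. Libraries of a group differed by more than sampling noise (chi-square per degree of freedom 8.24 to 23.0).

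The members and lists were chosen with earlier results of these data known. Genes named are the 10 members, Ciita, Nlrc5, Rfx5, Ptprc, up to 3 called genes in each direction of each pathway list, the 2 most abundant genes of each marker list and the 5 genes most correlated with each class. Of 163 listed symbols, 157 were found, and some items are not reported here. Sex-linked genes served only to compare libraries: all 6 mice expressed the Y-linked genes. Of these, Eif2s3y, named after its values were seen, was called lower (log2 fold change -1.56, edgeR adjusted p = 0.0885). It was at 24.7, 33.8 and 27.5 CPM in c124, c129 and c130, and at 9.11, 7.91 and 12.0 CPM in fl125, fl126 and fl128. Ddx3y, Uty and Kdm5d overlapped between the groups and were not called.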

Additional observations from a re-analysis of the deposited data

How the results depend on the processing

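Calls of class I and loading genes numbered 1 to 3 with each mouse left out (1 without c129), against 3 with all mice, and 0 at an adjusted p under 0.05 or under 0.1. Their median log2 fold change was -0.87 at a minimum mean of 50, where Tap2 was not tested. Class II calls numbered 0 to 2 with each mouse left out (2 without fl125) and 3 with limma voom, where 6.58% of all genes were called lower; the cause of the voom difference was not tested. H2-K1 and H2-D1 were called in all 9 other settings, with adjusted p of 0.0197 to 0.230 and 0.0207 to 0.216, the lowest without a minimum. With each mouse left out, Tap2 ranged from -1.24 to 0.24 (positive without c129 or fl128) and Tapbp from -0.031 to 0.28 (negative without c129), and neither was called. Over all genes, lower calls were 505 at a minimum mean of 50, 0 and 57 at an adjusted p under 0.05 and 0.1, and 399 to 874 with a mouse left out (399 without c129). Higher calls were 939 with no minimum, 1 and 33 at those adjusted p, and 402 to 933 with a mouse left out (933 without fl125, 402 without fl128). No paired analysis was possible because the labels give no litter or sort day by which mice of the groups could be matched. Depth limits Tap2, Ciita and Nlrc5, and the class II genes in fl125.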
